A study of Mus musculus and Homo sapiens with 22 samples.

Results

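The 10 genes described here form the core of the MYC network of transcription factors: Myc, Mycn, Mycl, Max, Mxd1, Mxd4, Mxi1, Mnt, Mga and Mlx. The rule lists them by name and uses no measured value, and all 10 were among the 56196 genes of the count tables. MYC, MYCN and MYCL are activators that bind DNA only as dimers with MAX. MXD1, MXD4, MXI1 and MNT compete for MAX and recruit SIN3 and histone deacetylases, so that the same binding sites are repressed. MGA, a very large protein, also pairs with MAX and anchors a Polycomb complex that silences germline genes, and MLX heads a parallel branch that responds to nutrients. Both MYC and MYCN are known from embryonic stem cells, and in the heart MYC is induced by growth stimuli.

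Gene counts and lists of N6-methyladenosine (m6A) sites were used. The counts came from poly(A)+ RNA-seq of mouse embryonic stem cells (mESCs), grown in serum and LIF, with 3 wild-type (WT) libraries and 3 libraries of Mettl3 knockout (KO) cells, which lack the main enzyme that methylates adenosines of mRNA. Both genotypes came from an earlier study, and although the study calls its miCLIP2 mESC samples biological replicates, no source used here says whether the RNA-seq libraries came from separate cultures or whether the KO cells were 1 clone, so p-values measure the spread between these libraries. The lists hold m6A sites from miCLIP2, an antibody-based crosslinking method, as predicted by the classifier m6Aboost. There was 1 list each for WT mESCs, for HEK293T cells, a human embryonic kidney line, and for purchased mouse heart RNA at inputs of 1000, 300, 100 and 50 ng. The mESC and HEK293T lists pool replicates, each heart list is 1 library, and none gives read depth, so a gene with no listed site is only one in which none was predicted. m6A is placed mainly at DRACH motifs (D is A, G or T, R is A or G, H is A, C or T), is densest around stop codons, and is best known for shortening the life of an mRNA. The comparison of KO with WT asks which transcripts changed when the enzyme was lost.

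Of the network, 6 of 10 genes had exonic sites in the mESC list (57 sites of 25456), 7 of 10 in the heart list at 1000 ng (50 of 46421), and 7 of 10 human counterparts in the HEK293T list (47 of 36556). Among all protein-coding genes the shares with an exonic site were 29.3%, 37.4% and 34.0%. These shares take in coding genes too low to be tested in the RNA-seq, whereas all 10 mouse members were tested. Of the coding genes tested in mESCs, 7022 had 0 sites in the mESC list. The others had 1 site (1662), 2 to 4 (2921), 5 to 9 (1384), 10 to 19 (438) or 20 or more (27). Among them the share with a site was thus well above 29.3%. Almost all sites of the network lay on DRACH, with 94.7% in mESCs, 94.0% in heart at 1000 ng and 91.5% in HEK293T. The sequences that carry the results below are printed 5′ to 3′ on the strand of the gene, in lower case, with the 5 nt centred on each listed adenosine in capitals. Mouse positions are on GRCm38 and human positions on GRCh38, and the letters were read from these genomes.

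The first set shows mouse sites that led a gene by score or were shared by mESCs and heart. The Max stretch (chr12:76938140-76938167, minus strand, 3′ UTR) holds 3 sites within 28 nt that both mESCs and heart share. The Mga stretch (chr2:119964122-119964151, plus strand, coding sequence of the last exon) holds 2 such sites. Mycn 1 (chr12:12940040-12940060, minus strand, coding sequence) was its highest score in mESCs, and Mycn 2 (chr12:12937174-12937194, minus strand, coding sequence) its only site in heart. Mxd4 (chr5:34176807-34176827, minus strand, 3′ UTR) had the highest score of the network in heart.
Max: tggtGGACTttgTGACTctGAACTtttc
Mga: gaaGGACTcaagcatagagatgGAACTgag
Mycn 1: atccttcaGGACTgcatgtgg
Mycn 2: acgctcagGGACCatgtgcct
Mxd4: ttcggtcaGGACTcaagttgc

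The second set shows the 5 places where a mouse site and a HEK293T site fell on the same adenosine of windows alike in sequence. Mycl (chr4:123001903-123001923, plus strand) and MYCL (chr1:39895965-39895985, minus strand) lay in the 3′ UTR, as did Max (chr12:76937990-76938010, minus strand) and MAX (chr14:65075870-65075890, minus strand), and Mnt (chr11:74843459-74843479, plus strand) and MNT (chr17:2386744-2386764, minus strand). Mxd4 (chr5:34177097-34177117, minus strand) and MXD4 (chr4:2250649-2250669, minus strand) lay in coding sequence, as did Mga (chr2:119964832-119964852, plus strand) and MGA (chr15:41767147-41767167, plus strand).
Mycl: cctttccaGAACTctacccag
MYCL: cccctccaGAACTctgcccag
Max: gaaagtggGGACAgatttgca
MAX: ggaagtggGGACAgattcgca
Mxd4: ggggagctGGACAgtgctggc
MXD4: ggtgagctGGACAgtgttggc
Mnt: gggtgcagAGACTctgagcca
MNT: gggtgcaaAGACTctgagcca
Mga: ggtcaattGGACAcaaaatga
MGA: ggtcagttGGACAcaaaatga

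Libraries held between 22746733 and 27254245 gene counts. Levels are in CPM, gene counts divided by the library's total and set to 1 common total, with edgeR's TMM factors. A gene was called where the quasi-likelihood test of edgeR, adjusted by Benjamini-Hochberg over 15731 genes, gave 0.01 or less. Mettl3 itself had 26.4, 26.6 and 28.9 CPM in WT and 18.4, 22.6 and 16.9 CPM in KO. The groups did not overlap, but the difference (log2 fold change -0.50, SE 0.14, adjusted p = 0.0134 by edgeR) missed the threshold, and it passed in a fit with replicate numbers as blocks (0.00281). Gene-level counts do not resolve a deleted exon, so this checks the labels only in part. The summed level of 9 mESC markers was 4352 to 4489 CPM in WT and 3403 to 3438 CPM in KO, with 4 of them lower and none at 0, and that of 6 primitive endoderm markers was 7.09 to 9.82 CPM in WT and 33.1 to 45.8 CPM in KO. The sum of 9 feeder fibroblast markers was 9.59 to 13.2 CPM in WT and 10.9 to 24.6 CPM in KO, and that of 8 heart muscle markers, 2 of them at 0 in all libraries, was 46.1 to 104 CPM in WT and 182 to 224 CPM in KO. Of the primitive endoderm markers 4 passed the filter on low counts, of the feeder markers 3 and of the heart markers 5. In each of these 3 lists 1 gene was called higher and 1 lower, so a sum can follow a single gene. The part of these shifts in summed level in the results below was not tested. In bulk RNA, fewer cells of a type and less RNA per cell cannot be told apart.

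All 10 network genes passed the filter on low counts and were tested. 2 were higher in KO, Mycn and Mga, 1 was lower, Mxd1, and 7 were not called. The 3 of 10 called (30%) stand beside 29.7% of all genes tested, of which 17.1% were higher and 12.6% lower. The ranges of KO and WT did not overlap for 6 of 10, beside 56.1% of all genes. The number of calls in the network was therefore near that of genes at large, and the account that follows is of which genes they were. The median log2 fold change was -0.18 over the 10 genes and -0.02 over all genes.

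**Figure D1:**
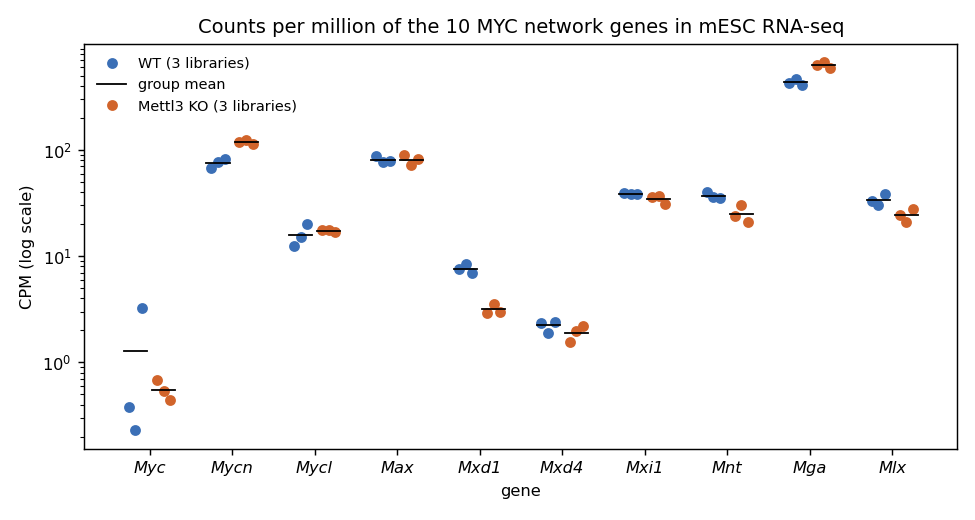
Level in CPM (log axis) of the 10 genes in each of the 3 WT (blue) and 3 KO (orange) mESC libraries, with black bars for the group means. Mycn and Mga were higher in each KO library, Mxd1 was lower in each, and 1 WT library stood apart for Myc.

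Among the activators, Mycn had the highest level, above Mycl and Myc. It had 67.3, 76.8 and 82.0 CPM in WT and 120.2, 123 and 113 CPM in KO. Every KO library lay above every WT library. The rise was 1.58-fold (log2 fold change 0.66, SE 0.11, adjusted p = 0.000848 by edgeR's quasi-likelihood test), with group means of 75.4 ± 7.46 and 118.9 ± 5.10 CPM (SD, n = 3). This call held when any 1 library was left out.

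Myc was barely detected, with 8, 6 and 68 counts in WT and 17, 16 and 12 counts in KO. In CPM this was 0.378, 0.228 and 3.21 in WT and 0.677, 0.540 and 0.443 in KO, so that WT replicate 3 alone was high and the groups overlapped. The log2 fold change of -1.17 (SE 0.80, 95% interval -2.95 to 0.61, adjusted p = 0.255 by edgeR's quasi-likelihood test) was not called, and without WT replicate 3 it was 0.88 (adjusted p = 0.130, edgeR). Counts of Mycn were 178, 336 and 25.5 times those of Myc in the WT libraries and 178, 228 and 256 times in KO. Over the 6 libraries the genes whose log2 CPM most resembled that of Myc were Rtn4, Madd and Itpk1 (Pearson r of 0.9955, 0.983 and 0.982), over points of which WT replicate 3 stood apart. For Mycn they were Rbak, H2afx and Cutc (r of 0.999, 0.9988 and 0.997, again over 6 libraries), all higher in KO on average. These genes were picked as the highest of 10846 compared for Myc and of 10845 for Mycn. Shared regulation cannot be read from such r.

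Mycl had 12.4, 15.2 and 20.2 CPM in WT and 17.6, 17.6 and 16.8 CPM in KO. The KO values lay inside the range of WT, and the log2 fold change was 0.12 (95% interval -0.27 to 0.51). Max, the partner shared by the whole MYC branch, had 87.1, 77.5 and 78.9 CPM in WT and 88.8, 71.6 and 82.3 CPM in KO. The groups overlapped fully, and the log2 fold change was -0.0049 with a 95% interval of -0.25 to 0.25.

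Of the repressive partners, Mxd1, which is induced as cells leave the cycle, showed the largest change of the network that was called. It had 7.51, 8.49 and 6.90 CPM in WT and 2.95, 3.54 and 2.96 CPM in KO. Every KO library lay below every WT library, and the level was 2.42-fold lower (log2 fold change -1.28, SE 0.20, adjusted p = 0.000710 by edgeR's quasi-likelihood test), also with any 1 library left out. Mxd4 was low, at 2.36, 1.90 and 2.41 CPM in WT and 1.55, 1.96 and 2.22 CPM in KO, and the groups overlapped (log2 fold change -0.21, 95% interval -0.79 to 0.36). Mxi1 had 39.3, 38.1 and 38.1 CPM in WT and 36.2, 36.6 and 31.1 CPM in KO. The groups lay apart by a small step, and the log2 fold change of -0.15 (95% interval -0.40 to 0.09) was not called.

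Mnt, the widely expressed antagonist of MYC, had 40.4, 35.7 and 35.1 CPM in WT and 23.8, 30.4 and 21.02 CPM in KO. The groups did not overlap, yet the log2 fold change of -0.56 (SE 0.15, adjusted p = 0.0110 by edgeR's quasi-likelihood test) just missed the threshold. It passed with the replicate block (adjusted p = 0.000855, edgeR), without WT replicate 3 (0.00951), without KO replicate 2 (0.00367) and by DESeq2 (0.00381). Mlx, the partner of the nutrient-responsive factors MLXIP and MLXIPL, had 33.1, 30.4 and 38.4 CPM in WT and 24.6, 20.9 and 27.9 CPM in KO. The groups lay apart again, with a log2 fold change of -0.47 (SE 0.14, adjusted p = 0.0205 by edgeR's quasi-likelihood test, and 0.00151 with the replicate block).

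Mga had the highest level of the network, with 429.8, 465 and 409 CPM in WT and 625, 668 and 589.5 CPM in KO. No KO library came near the WT range, and the rise was 1.44-fold (log2 fold change 0.53, SE 0.11, adjusted p = 0.00346 by edgeR's quasi-likelihood test). The call was lost without WT replicate 1 (adjusted p = 0.0200, edgeR), without KO replicate 1 (0.0191) and without KO replicate 2 (0.0124), while the log2 fold change stayed between 0.49 and 0.63 under all alternatives.

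Per kilobase of merged exons, the mean CPM in WT were 28.4 ± 1.84 for Mga, 22.9 ± 2.27 for Mycn and 22.6 ± 1.44 for Max (SD, n = 3), and the 3 libraries of Mlx had 16.6, 15.2 and 19.2. Lower levels were 8.01 ± 0.632 for Mnt, 5.64 ± 0.0971 for Mxi1 and 3.94 ± 0.980 for Mycl, followed by 1.08 ± 0.114 for Mxd1, 0.469 ± 0.619 for Myc and 0.262 ± 0.0329 for Mxd4. In this order the libraries of Mycn and Max overlapped, as did those of Mxd1 and Myc and those of Myc and Mxd4, and all other neighbours lay apart. Max moved to first place, with 41.8 ± 2.67 CPM per kilobase, when the length of the longest coding transcript was used, since its merged exons are much longer than that transcript.

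**Figure D2:**
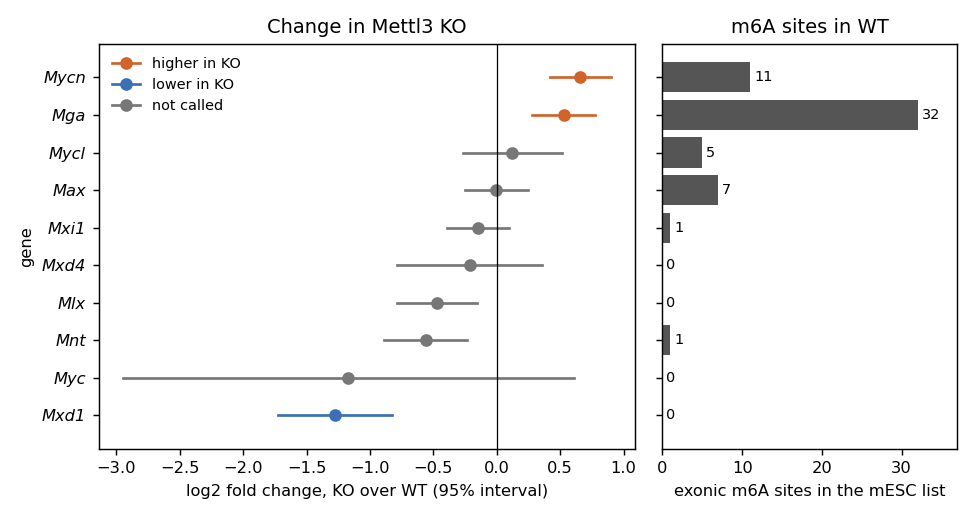
Left, log2 fold change of KO over WT for each gene with its 95% interval from edgeR (orange, higher; blue, lower; grey, not called). Right, number of exonic m6A sites of the same gene in the WT mESC list; Mycn and Mga, the genes called higher, held 11 and 32 sites, and Mxd1, the gene called lower, held 0.

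Read beside the site list, both genes called higher carried the most sites, Mga 32 and Mycn 11. Max had 7 sites, Mycl 5, Mxi1 1 and Mnt 1. Mxd1, called lower, had 0, as did Myc, Mxd4 and Mlx, of which Mlx was well expressed. Over all protein-coding genes tested, the median log2 fold change was 0.08 in the 7022 with 0 sites, -0.11 in the 1662 with 1 site, -0.03 in the 2921 with 2 to 4 sites, 0.12 in the 1384 with 5 to 9 sites, 0.19 in the 438 with 10 to 19 sites and 0.30 in the 27 with 20 or more. The share called higher was 20.4% with 0 sites, 13.2% with 1 site, 26.0% with 10 to 19 sites and 29.6% with 20 or more. Most genes with as many sites as Mycn or Mga were thus not called higher, and the changes of both were above the median of their class.

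**Figure D3:**
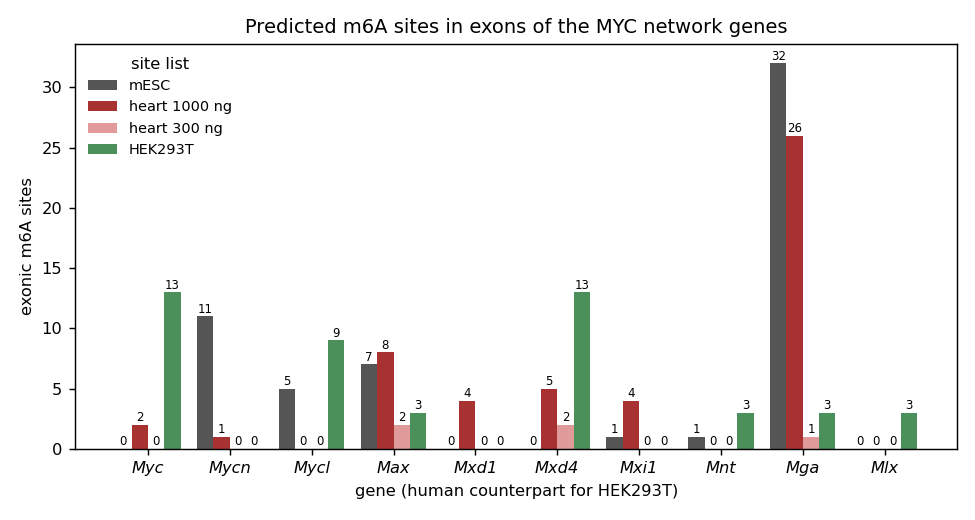
Number of predicted m6A sites in exons of each gene in the lists of mESCs, heart at 1000 ng and 300 ng, and HEK293T (human counterparts). Mga has the most sites in mESCs (32) and in heart at 1000 ng (26), Max and Mxd4 have 2 each and Mga 1 at 300 ng, and MYC and MXD4 lead in HEK293T with 13 each.

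Mga was the most heavily marked of the network, and with 32 sites it ranked at place 3 of 6526 genes with a site in mESCs. In heart at 1000 ng it had 26 sites, which 0.658% of 8512 genes reached or passed. Unlike the usual pile-up after the stop codon, 30 of the 32 mESC sites and 25 of the 26 heart sites were in coding sequence. They sat in the long exons: 14 of the mESC sites were in the last exon (exon 24, 5890 nt), 6 in exon 17 (1469 nt), 4 each in exons 3 (943 nt) and 8 (659 nt), 2 in exon 2 (1128 nt) and 1 in exon 13 (518 nt), while 1 lay in an exon of another transcript. In the last exon all but 1 of these 14 lay before the stop codon, although its 3′ UTR runs for 4616 nt. Heart had 14 sites in the same exon, of which 12 were the same nucleotides. The gene is long and holds 323 DRACH motifs in its longest coding transcript, of which 9.60% were listed in mESCs and 7.74% in heart. Per kilobase of transcript the density of 2.23 sites in mESCs was below that of Mycn (4.11) and Max (3.60).

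The 11 sites of Mycn in mESCs spanned its coding sequence (6 sites) and 3′ UTR (5 sites). Measured from the last base of the stop codon, they ran from -1045 to 470 nt, and the nearest lay at -8 and 16 nt. Scores ran from 0.585 to 0.820 on the m6Aboost scale of 0.5 to 1. They covered 24.4% of the 41 DRACH motifs of the transcript, the largest share of any of the 10 genes in mESCs. In heart only 1 site was listed, at -178 nt (Mycn 2 above), with a low score of 2.30, and it was among the mESC sites.

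Max carried its sites in the 3′ UTR alone, 7 in mESCs and 8 in heart, and 6 of them were the same nucleotides. The 3 adjacent sites printed above lay 407, 415 and 422 nt after the stop codon, with scores of 0.916, 0.804 and 0.919 in mESCs and of 35.7, 47.6 and 40.0 in heart. The scale of the heart scores is not stated, so that they rank sites only within heart, where these 3 stood above 79.5%, 85.1% and 82.0% of the list. A further 4 sites in mESCs and 2 in heart fell in introns of Max and were not counted. Mycl had 5 mESC sites, all in the 3′ UTR between 209 and 1610 nt after the stop codon, and 2 of the 5 were off the DRACH motif. Mxi1 and Mnt had 1 site each, at 553 and 149 nt after the stop codon, and the Mxi1 site was shared with heart.

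Heart showed sites in genes where mESCs had none. Myc had 2, and the stronger (score 33.3, above 78.0% of the heart list) was the first nucleotide after the stop codon, with the other at 68 nt. Mxd1 had 4 sites, all in the 3′ UTR from 182 to 2537 nt. Mxd4 had 5, with the highest score of the network in heart (96.5, above 93.9% of the list) 175 nt after the stop codon. Expression in heart was not measured in the files used here, so that the presence of a site cannot be weighed against the level of the transcript there. In mESCs, Myc and Mxd4 had the lowest levels of the network and Mxd1 the next lowest.

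Between mESCs and heart at 1000 ng, 27 sites of the network were the same nucleotide on the same strand, which is 47.4% of the mESC sites and 54.0% of the heart sites. Of these, 19 were in Mga, 6 in Max, 1 in Mycn and 1 in Mxi1. Over all genes the shares were 59.7% of mESC and 33.7% of heart sites, so that the network lay below them in mESCs and above them in heart, with Mga giving most of its sites. The median mESC score was 0.802 for the 27 shared sites and 0.755 for the 30 others, and the median heart score was 20.4 for the shared and 6.93 for the 23 others. At 300 ng of heart RNA 5 sites remained, 2 in Max, 2 in Mxd4 and 1 in Mga, each also in the list at 1000 ng, and the share of coding genes with a site was 15.4%. At 100 and 50 ng none was listed, when 3.08% and 0.825% of coding genes had one. As a check of tissue, 0 of 8 heart markers had a site in mESCs and 5 in heart at 1000 ng, led by Ttn, the giant sarcomere protein, with 195. Of 9 mESC markers, 7 had a site in mESCs and 1 in heart, Esrrb, with 15 sites in mESCs and 6 in heart.

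**Figure D4:**
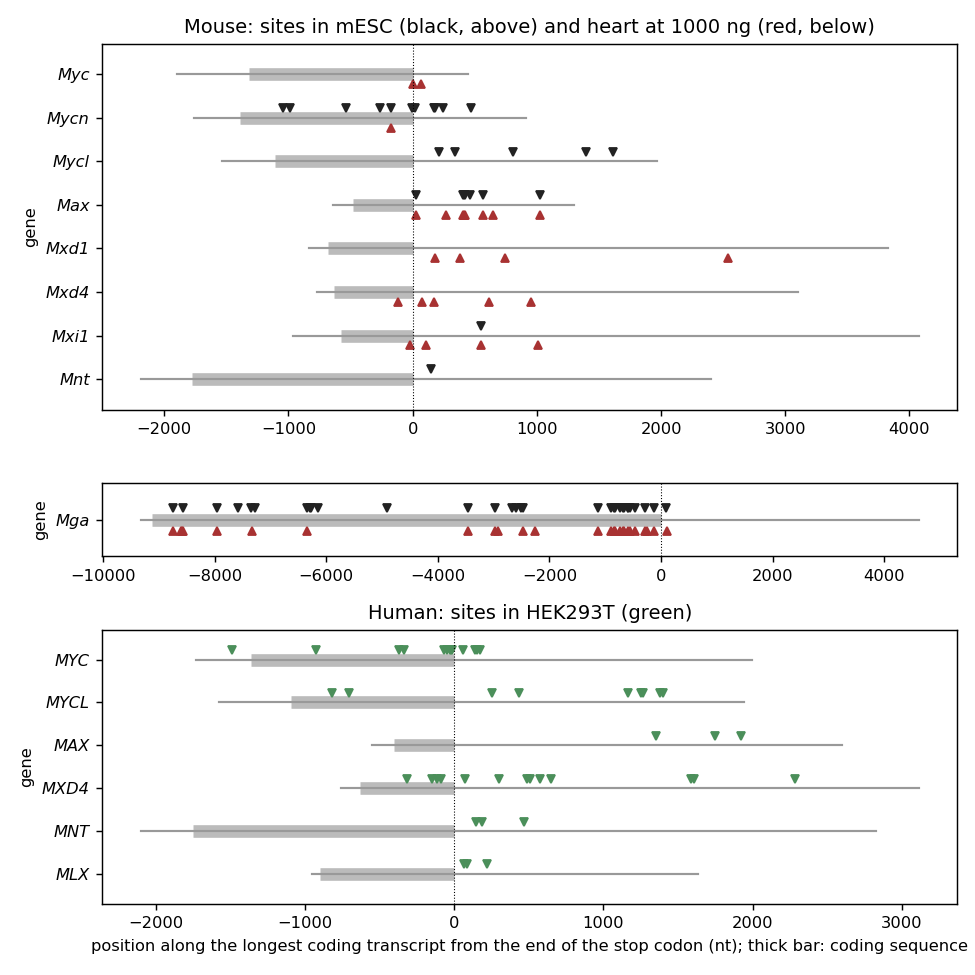
Exonic sites along the longest coding transcript of each gene, by distance in nt from the last base of the stop codon (dotted line), with the coding sequence as a thick grey bar and untranslated regions as a thin line. The upper panels show mouse genes with sites in mESCs (black, above) and heart at 1000 ng (red, below), with Mga on a scale of its own and 1 Mga site of another transcript left out, and the bottom panel shows 6 human genes in HEK293T (green). All but 1 of the Mga sites drawn for each list lie before the stop codon, Max sites after it, and 9 of the 13 MYC sites crowd around it.

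In HEK293T the order of the genes was another one. MYC and MXD4 had 13 sites each, which 6.27% of 7133 genes with a site reached or passed, MYCL had 9, and MAX, MNT, MGA and MLX had 3 each, while MYCN, MXD1 and MXI1 had 0. MYC had 1 site in its 5′ UTR, 8 in coding sequence and 4 in the 3′ UTR. Of these, 9 lay between -67 and 170 nt of the stop codon, and the highest score of the network in HEK293T, 0.954, was at 153 nt. All 13 were on DRACH. MXD4 had 4 sites in coding sequence and 9 in the 3′ UTR, and 3 of the 13 were off DRACH. The 3 sites of MLX lay 64, 86 and 218 nt after the stop codon, with scores of 0.818 to 0.907, whereas mouse Mlx had 0 sites in all mouse lists.

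For each site the best match of its 21-nt window, without gaps, was sought anywhere in the longest coding transcript of the counterpart gene. The genes were not aligned. A window counted as alike when at least 17 positions were identical. Of 80 mouse sites of the network, 44 had such a window in the human transcript, 39 with an adenosine at the centre, and 5 of these adenosines were listed in HEK293T. The 5 pairs printed above were identical at 18 (Mycl), 19 (Max), 19 (Mxd4), 20 (Mnt) and 20 (Mga) of 21 positions. The Mxd4 and MXD4 sites both lay 115 nt before the last base of the stop codon. Mga and MGA both lay 123 nt before it. Mycl and MYCL lay 1398 and 1397 nt after it, and Mnt and MNT 149 and 147 nt after it. Max and MAX lay 568 and 1923 nt after it, so this pair did not match in position along the transcripts used. Of 39 Mga sites in mouse, 23 had a like window in MGA and 20 an adenosine there, and 1 was listed. Not all of these human adenosines lay on DRACH, those at chr15:41669271 and chr15:41711051 being examples off the motif. For Mycn, 7 of 11 sites had a like window in MYCN and 5 an adenosine, with 0 listed. Seen from the human side, 10 of the 13 MYC sites had a like window with an adenosine in mouse Myc, 2 of them identical at 21 of 21 positions, and 0 were listed in mESCs or heart. Transcript levels in HEK293T were not measured in the files used here.

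Partners and targets of the network were described by lists chosen from textbook knowledge. Of the remaining network genes, Mlxipl, the carbohydrate-responsive partner of MLX, had 3.68, 4.76 and 1.98 CPM in WT and 15.1, 13.8 and 9.61 CPM in KO. All KO libraries were higher (log2 fold change 1.87, SE 0.30, adjusted p = 0.000728 by edgeR's quasi-likelihood test). Mlxip and Mxd3 were not called (log2 fold changes of -0.15 and -0.17, with 95% intervals of -0.48 to 0.18 and -0.58 to 0.25). Of 4 targets of MLX and its partners none was called, beside 29.7% of all genes. The 2 best known went apart in value. Txnip, an inhibitor of glucose uptake, had a log2 fold change of -0.92 (SE 0.27, adjusted p = 0.0195 by edgeR). Arrdc4, its relative, had one of 0.73 (SE 0.20, adjusted p = 0.0135 by edgeR). Both passed with the replicate block (adjusted p = 0.000159 and 6.15e-05, edgeR) and by DESeq2, which called 2 of the 4. Txnip also passed without WT replicate 3 (0.000171) and Arrdc4 without WT replicate 2 (0.000719). Klf10 (0.23) and Pklr (-0.08), the other 2, were not called. Unadjusted edgeR p-values were 0.00699 for Txnip, 0.00437 for Arrdc4, 0.0508 for Klf10 and 0.851 for Pklr, so that 2 of 4 lay under 0.05.

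**Figure D5:**
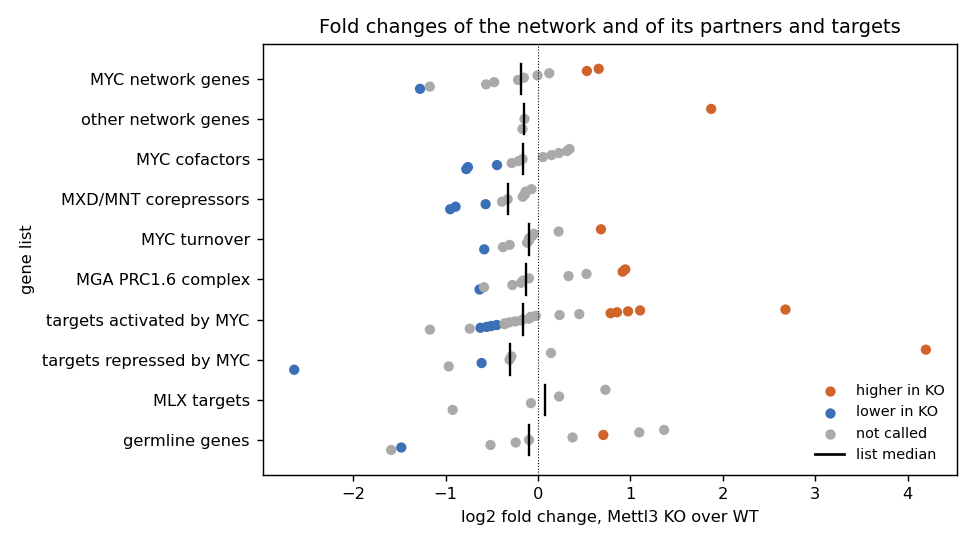
Log2 fold change of KO over WT for each tested gene of the network and of 9 lists of partners and targets (orange, higher; blue, lower; grey, not called), with a black bar at the median of each list. The called corepressor and cofactor genes all lie below 0, and targets activated by MYC lie on both sides.

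The corepressors through which MXD proteins and MNT act had 3 of 9 members lower, 0 higher and 6 not called, with a median log2 fold change of -0.33. Hdac1 fell by 0.95 on the log2 scale, Sap30 by 0.89 and Rbbp4, a histone chaperone, by 0.57 (SE 0.16, 0.12 and 0.11). Hdac1 and Sap30 kept their calls with any 1 library left out, and Rbbp4 lost its call without WT replicate 1 (adjusted p = 0.0111, edgeR) and without KO replicate 1 (0.0140). MYC cofactors had 3 of 11 lower and 0 higher (median -0.17): Ruvbl1 and Ruvbl2, the ATPases that MYC recruits with histone acetyltransferases, fell by 0.78 and 0.76 on the log2 scale (SE 0.18 and 0.15), and Wdr5, which anchors MYC on chromatin, fell by 0.44 (SE 0.11). The count of called cofactors fell to 0 without WT replicate 1 and without KO replicate 2, and to 1 without KO replicate 1 and without KO replicate 3. Both lists stand beside the 12.6% of all genes that were lower.

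Of 10 genes that control the stability of MYC proteins, Fbxw7, the ubiquitin ligase subunit that marks MYC and MYCN for degradation, rose by 0.68 (SE 0.11) on the log2 scale, and Usp7, a deubiquitinase, fell by 0.58 (SE 0.11). The other 8 were not called (median of the list -0.10), so that 20% were called beside 29.7% of all genes, and Usp7 lost its call without KO replicate 1 (adjusted p = 0.0176, edgeR), without KO replicate 3 (0.0150) and when only library size was scaled (0.0113). With the replicate block 2 genes were lower. In the Polycomb complex that MGA anchors, 2 of 10 members were higher and 1 lower, a share of 30% that is near the 29.7% of all genes. Ring1, one of its ubiquitin ligases, rose by 0.94 (SE 0.16), E2f6, which binds DNA for the complex, rose by 0.92 (SE 0.14), and Cbx3 fell by 0.63 (SE 0.11). These calls held with any 1 library left out, and the block gave 5 called in place of 3. L3mbtl2 and Pcgf6, the members most particular to this complex, had log2 fold changes of -0.18 and -0.16 and were not called.

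Genes that MYC proteins are known to activate did not move one way. Of 23, 5 were higher, 4 lower and 14 not called, and the median log2 fold change was -0.17. The 39.1% called stand beside 29.7% of all genes tested. The highest was Ccnd2, a D-type cyclin, with 1.09, 0.609 and 1.70 CPM in WT and 5.53, 6.92 and 9.05 CPM in KO (log2 fold change 2.68, SE 0.35). Polr1b, a subunit of RNA polymerase I, rose by 1.11 (SE 0.12), Rrs1, a ribosome assembly factor, by 0.98 (SE 0.13) and Ncl, nucleolin, by 0.86 (SE 0.17) on the log2 scale, whereas Cad, Srm, Bop1 and Eif4e were lower, between -0.45 and -0.62. The number called was 3 without WT replicate 1, 4 without KO replicate 1 and 4 without KO replicate 3, in each case with 0 lower. Ncl was among those lost (adjusted p = 0.0197, 0.0145 and 0.0117, edgeR). The block gave 7 lower in place of 4, whereas scaling by library size only gave 6 higher and 0 lower.

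Of 7 genes that MYC is known to repress, Ndrg2 was lower, with 65.2, 61.9 and 64.1 CPM in WT and 10.5, 9.32 and 10.9 CPM in KO (log2 fold change -2.64, SE 0.12), Cdkn1b, a cyclin kinase inhibitor, was lower (-0.61, SE 0.14), Thbs1 was higher and 4 were not called. The 42.9% called stand beside 29.7% of all genes. Thbs1, a secreted inhibitor of vessel growth, had only 5, 4 and 4 reads per WT library against 214, 33 and 32 per KO library, so that KO replicate 1 stood apart. Its log2 fold change was 4.198 (SE 0.91) and without KO replicate 1 it was 2.57, and the call was lost without WT replicate 1 (adjusted p = 0.0197, edgeR) and without WT replicate 2 (0.0139). Without WT replicate 1 only 1 gene of this list was called. Cdkn1b lost its call without WT replicate 1 (adjusted p = 0.0249, edgeR), KO replicate 2 (0.0223) or KO replicate 3 (0.0239) and when only library size was scaled (0.0124).

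Of 10 germline genes known as targets of MGA and MAX, 9 passed the filter and 2 were called, 22.2% beside 29.7% of all genes. Dazl, an RNA-binding protein of germ cells, had 17.3, 29.3 and 12.3 CPM in WT and 5.25, 9.96 and 5.91 CPM in KO and was lower (log2 fold change -1.48, SE 0.33). Ddx4, a germ cell helicase, had 18.4, 15.6 and 13.3 CPM in WT and 29.0, 21.5 and 26.8 CPM in KO and was higher (0.71, SE 0.16). Directions thus differed within the list, whose median was -0.10. The number called was 0 without KO replicate 1 and without KO replicate 3 and 1 without WT replicate 1 and without WT replicate 2, while the block gave 4. Dazl also lost its call when only library size was scaled (adjusted p = 0.0124, edgeR).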

How the data were processed

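For the deposited gene counts, the authors mapped reads to GRCm38 with STAR 2.6.1b and counted them per gene of GENCODE 23 (mouse) with HTSeq 0.12.4, by strand. They are raw whole-number counts. The score in the deposited mESC and HEK293T site lists is the authors' m6Aboost prediction, a fraction between 0.5 and 1, after PureCLIP peak calling and a requirement for peaks in at least 2 replicates. The heart lists, per the file headers and values, hold a deposited score of unstated scale that is not such a fraction. Sample titles give the smaller heart inputs in µg, and ng was used after the list names and the methods.

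Lines of the count tables that name no gene (36.7% to 42.7% of the total) were left out. Tests used R 4.3.3 and edgeR 4.0.16 (filterByExpr, TMM, glmQLFit, glmQLFTest, no covariate), with Benjamini-Hochberg adjustment over 15731 genes. The biological coefficient of variation was 0.159. On simulated counts, with 50 genes changed at each size, the test recovered 22% of 1.5-fold and 86% of 2-fold changes. It recovered 100% of 4-fold and 8-fold changes. A gene that was not called may thus still have changed by about 1.5-fold, or by more where its interval is wide. For Myc, with 6 to 68 counts per library, the 95% interval ran from -2.95 to 0.61 on the log2 scale. For Mxd4 it ran from -0.79 to 0.36. Same-numbered WT and KO libraries deviated together for replicates 2 and 3 (r of 0.464 and 0.303). For replicate 1 the r of 0.122 was close to the 0.11 of WT replicate 3 with KO replicate 1. Pairs with unlike numbers ran from -0.342 to 0.11. The labels name no shared batch, and the main fit did not pair libraries by number. Replicate numbers entered as blocks only in an alternative. No replicate pair was alike within counting noise. Max and Mxd1 overlap another annotated gene on their strand, and reads that fall in both are not counted.

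Sites were placed with Python 3.11.15 and pandas 2.3.3 on GENCODE 21 (mouse) and 44 (human), in exons of a single gene on its strand, and on its longest coding transcript. The members and lists were chosen with earlier results of these data known. Named genes are the 10 members, Mettl3, from each further list up to 4 called genes with the largest fold change, all genes of lists with under 5, and the 3 genes most like Myc and the 3 most like Mycn among those averaging 100 counts or more. Cad, Srm, Bop1, Eif4e, L3mbtl2, Pcgf6, Ttn and Esrrb were named after their values were seen. Alternatives were other scalings, filters, DESeq2 1.42.0, an adjusted p of 0.05, the replicate block, leaving out each library, other rules for sites, and windows with 15 or 19 identical positions.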

Additional observations from a re-analysis of the deposited data

How the results depend on the processing

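The calls of Mycn and Mxd1 kept their direction and side of the threshold under every alternative run. Of the network, 3 genes were called, and 5 were with the replicate block and at an adjusted p of 0.05, in both cases with 3 lower, Mnt and Mlx being added. DESeq2 and the test without a filter on low counts gave 2 lower. Leaving out 1 library gave 1 to 2 genes higher and 1 to 2 lower, and the genes that moved were Mga and Mnt. Beside the changes given with the results above, the replicate block changed no other call of a network gene. The direction of Mycl, Max and Myc, none of them called, turned under some alternative, with ranges of -0.03 to 0.33, -0.07 to 0.10 and -1.70 to 0.88 on the log2 scale. Scaling by library size only shifted the median over all genes from -0.02 to 0.08 on the log2 scale and the share of calls that were higher from 57.5% to 71.0%, and the 3 calls of the network held. Of all genes 4669 were called, against 6837 with the replicate block, 7336 at an adjusted p of 0.05, 3108 without WT replicate 1, 2761 without KO replicate 1 and 3109 without KO replicate 3 (edgeR).

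Keeping only scores at or above the list median left 31 network sites in mESCs, 26 in heart at 1000 ng and 30 in HEK293T. Windows with 19 identical positions left 26 mouse and 11 human sites with a counterpart, and 4 adenosines listed in both species in place of 5. With 15 identical positions there were 6. The added one was the Max site 407 nt after the stop codon. Using the length of the longest coding transcript changed the rank of 5 of 10 genes by level. Counting introns took Max from 7 to 11 sites in mESCs, while totals over the network changed by less than 1.5 times with introns, with shared exons and within 2 nt. The site lists carry no depth per gene, so a missing site may be unread. In the RNA-seq, the intervals of Myc and Mxd4 were the widest of the network.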
